A study of Mus musculus with 9 samples.

Results

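The distal stretch of mouse chromosome 8 was examined, from the start of Cfap20 to the end of the chromosome (gene order of GRCm38.p6). It holds 305 of the 18194 genes measured on the array, after 5 genes were left out. Where a gene had several probe sets, the brightest on average over the 9 arrays stands for it. Of the 305, 229 passed a filter that removed genes in the lowest 40% of probe set means, and these are called the tested genes below. The remaining 76 were too dim to describe. The stretch was chosen by the signals themselves, since its genes were mostly higher in ALT than in telomerase tumours, so that contrast is described here without a test.

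The tumours were T-cell lymphomas of G3 Atm-/-TERT-ER mice that arose under 4-hydroxytamoxifen (4-OHT) and were passaged in SCID recipients. These mice lack the DNA damage kinase Atm, and their telomerase reverse transcriptase is fused to the oestrogen receptor, so that 4-OHT switches it on. There were 3 telomerase tumours at passage 4 on 4-OHT, 5 tumours at passage 4 on vehicle that used alternative lengthening of telomeres (ALT), and 1 parental tumour labelled telomerase-positive. Drug, active telomerase and ALT cannot be told apart between the groups, and all 9 tumours share the Atm deletion and the TERT-ER allele. Both groups derive from the same parental lines, and tumours counted here as separate may share one line. Which line each tumour came from, the number of host animals and the ages are not stated in the labels.

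ALT is a way of copying telomeres by recombination that tumour cells can adopt when telomerase is missing. Cells that pass through a phase of short telomeres are known for gains and losses of chromosome arms, and the genes of a gained segment tend to be transcribed more as a group. DNA copy number was not measured here. The distal part of chromosome 8 is gene-rich and mixes housekeeping genes, T-cell regulators and genes of other tissues, among them the cadherins and carboxylesterases.

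Several genes of the stretch stand head to head, with starts facing away from each other across a short stretch of DNA. Of 228 members with a RefSeq promoter entry (GRCm38.p6), 12 pairs had starts within 1000 bases of each other, and in 9 of these both genes were tested. Dnaaf1 has no such entry, so the close pair of Hsdl1 and Dnaaf1 described below is not counted. By the probe sets that stand for the genes, both ALT minus telomerase differences were above 0 in 8 of the 9 pairs, beside 84.3% of single tested genes of the stretch. In 5 of the 9 pairs every ALT array was above every telomerase array for both genes. Of single genes, 45.4% of the tested genes of the stretch and 10.9% of all tested genes had such a separation. A share of single genes is not a like measure for pairs, and the pairs were not tested against other members. The sequences between the starts of 3 pairs, on the plus strand, are shown because they carry the pair with opposite differences and 2 pairs in which both genes were above 0. Those before Cfap20 and Csnk2a2, on the minus strand, mark the first 2 genes of the stretch. Capitals mark matches to the GC box (GGGCGG) and the ETS motif (CCGGAAG) on either strand.
Slc7a6os and Prmt7, chr8:106210934-106211053: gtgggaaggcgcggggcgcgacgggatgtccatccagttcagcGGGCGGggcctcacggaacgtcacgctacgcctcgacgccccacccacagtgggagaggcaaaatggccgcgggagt
Cog8 and Nip7, chr8:107056738-107056876: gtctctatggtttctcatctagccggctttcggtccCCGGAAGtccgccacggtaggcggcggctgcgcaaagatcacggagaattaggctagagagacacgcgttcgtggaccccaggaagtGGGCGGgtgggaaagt
Fhod1 and Slc9a5, chr8:105348063-105348155: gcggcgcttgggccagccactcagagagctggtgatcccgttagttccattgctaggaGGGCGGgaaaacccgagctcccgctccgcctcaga
Cfap20, chr8:95434870-95434989: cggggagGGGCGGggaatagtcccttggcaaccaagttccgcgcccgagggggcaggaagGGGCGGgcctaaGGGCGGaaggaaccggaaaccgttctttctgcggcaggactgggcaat
Csnk2a2, chr8:95488821-95488940: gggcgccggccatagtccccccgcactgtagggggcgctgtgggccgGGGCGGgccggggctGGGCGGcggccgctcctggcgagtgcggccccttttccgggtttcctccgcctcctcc

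In windows of 300 bases (250 before to 50 after the start), the GC box was found at 68.4% of the 177 tested members with an entry and at 35.9% of 27025 genes of the table. The ETS motif was found at 20.9% and 9.12%, the CCAAT box (CCAAT) at 29.9% and 37.9%, and TATAAA at 7.34% and 14.2%. Both strands were searched, a window counted once for each motif it held, and overlap between motifs was not looked at. The table also holds genes that the array filter would have removed. Its windows also held fewer CG steps, with a median of 7 against 23 at the tested members. The GC box and the ETS motif each contain a CG, and the shares were not adjusted for this. These matches describe the letters of the windows only.

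By their median, genes of the stretch were higher in every ALT tumour and level in the parental tumour. Values were compared as log2 of the MAS5 signal plus 16, array by array against the mean of the 3 telomerase tumours. The median over the 229 tested genes was 0.29 in ALT 1, 0.39 in ALT 2, 0.31 in ALT 3, 0.36 in ALT 4 and 0.30 in ALT 5. It was 0.04, −0.04 and −0.00 in telomerase 1, 2 and 3, and −0.01 in the parental tumour. The 5 ALT medians thus lay together and above all 4 others. Over all 12361 tested genes the same medians ran from −0.02 to 0.01 in the ALT arrays. Over the 420 tested genes of chromosome 8 before Cfap20 they ran from −0.06 to 0.01.

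**Figure D1:**
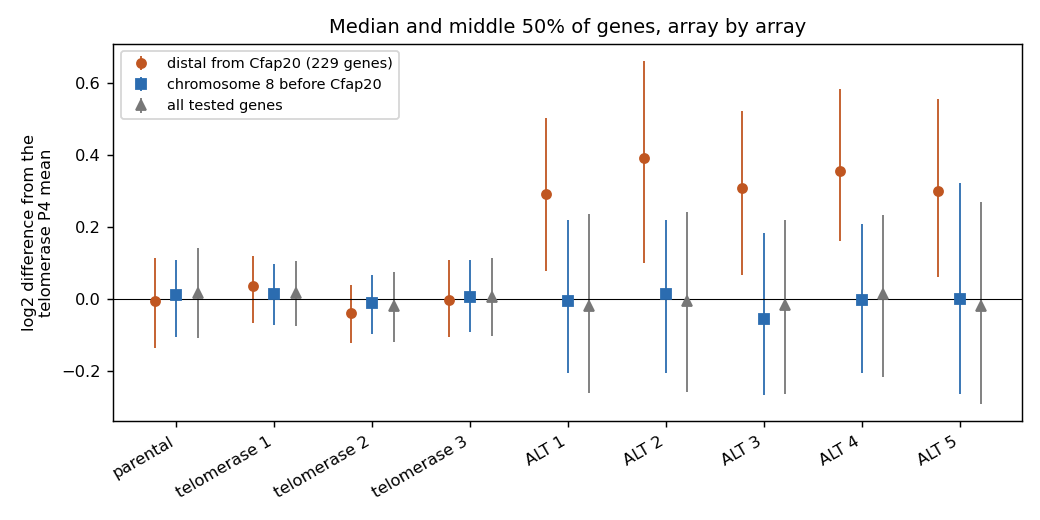
Median log2 difference from the telomerase passage 4 mean (points) and the middle 50% of genes (bars) in each of the 9 arrays, for the 229 tested genes from Cfap20 on, the 420 tested genes before it and all 12361 tested genes. The distal genes have medians of 0.29 to 0.39 in the ALT arrays and of −0.04 to 0.04 in the others.

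With the groups averaged, the median ALT minus telomerase difference was 0.34, and the middle 50% of the genes lay between 0.13 and 0.52. This median corresponds to a signal 1.26-fold higher. The difference was above 0 in 193 of 229 genes (84.3%), compared with 49.2% of all tested genes. In 144 of the 229 (62.9%) all 5 ALT arrays lay above the telomerase mean, and in 6 none did; over all tested genes the shares were 21.0% and 23.9%. In 104 genes every ALT array was above every telomerase array, which is 45.4% of the tested members beside 10.9% of all tested genes. The filter used the mean over 9 arrays, so these counts include genes whose telomerase mean lay below its limit. Dnaaf1, Slc35f3, 9430091E24Rik and Pmfbp1, with telomerase means of 22.7, 12.5, 22.6 and 22.9, are among them. In 2 genes every ALT array was below, beside 13.8% of all tested genes. The model across all genes (limma, adjusted p under 0.05) called 87 of the 229 higher and 2 lower, beside 7.47% and 10% of all tested genes. These counts describe the choice of the stretch and are not support for it.

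The size of the difference varied from gene to gene around this common level. It lay between 0.25 and 1 in 124 genes (54.1%), against 18.8% of all tested genes, and within 0.25 of 0 in 79 genes (34.5%), against 57.9%. It was 1 or more in 17 genes and −1 or less in 3 genes, and in 5 of these 20 the groups overlapped. These 5 were Ctrl, Ctrb1 and Tmed6, with higher ALT means, and Acta1 and Cdh1, with lower ones. The plot of differences gene by gene shows the ALT rows as mostly red bands over the whole stretch, and the parental and telomerase rows as pale.

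**Figure D2:**
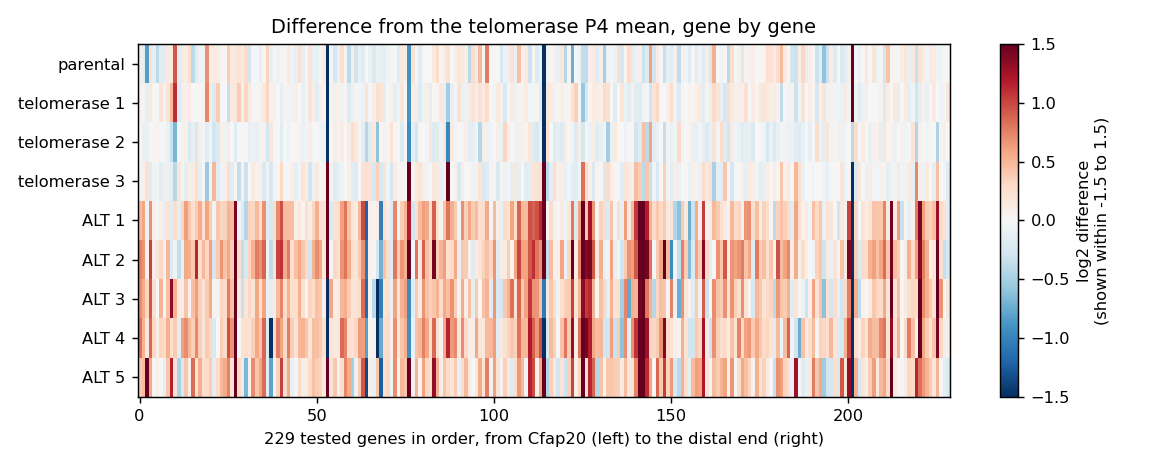
Log2 difference from the telomerase passage 4 mean for the 229 tested genes in chromosome order (columns) in the 9 arrays (rows), with the colour scale cut off at both ends. Red columns recur in all 5 ALT rows, and a few dark columns, such as Ctrb1 and Acta1, differ widely between tumours of the same group.

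The difference was present along the whole stretch. In 15 consecutive blocks of 15 tested genes (19 in the last), the block median ran from 0.14 to 0.51, and in all 15 blocks the median was above 0 in each of the 5 ALT arrays. The lowest was the block from 1810019D21Rik to Cog8 and the highest the block from Mphosph6 to Zdhhc7. The parental medians of the same blocks ran from −0.10 to 0.11. Before Cfap20, 28 blocks had medians from −0.19 to 0.19, and 6 of them were above 0 in every ALT array.

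**Figure D3:**
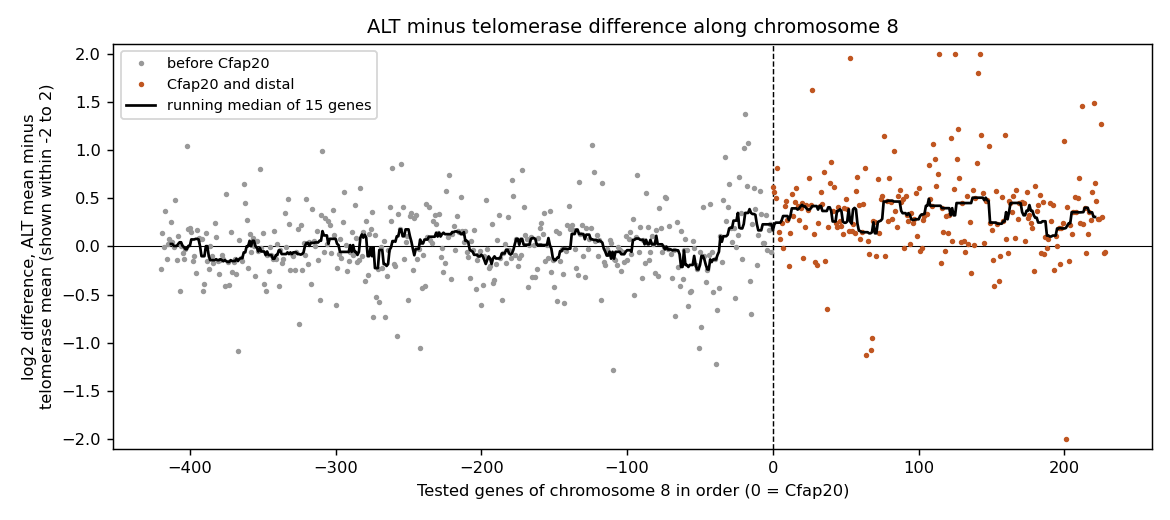
ALT minus telomerase log2 difference of each tested gene of chromosome 8 in order, counted from Cfap20 at 0, with values limited to −2 to 2 and a running median of 15 genes (line). The line is at 0.10 or above in all windows from Cfap20 on, and before it swings around 0 until the last genes ahead of Cfap20.

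The edge at Cfap20 was not sharp. Cfap20 encodes a protein of cilia and centrioles. It had signals of 578, 543 and 534 in telomerase 1 to 3 and 767, 931, 903, 978 and 729 in ALT 1 to 5, with 597 in the parental tumour. The groups did not overlap, and the log2 difference was 0.62 (SE 0.111). Its neighbour Csnk2a2, a catalytic subunit of casein kinase 2, went from 958 ± 68.8 (SD, n = 3) in telomerase tumours to 1420 ± 78.7 (SD, n = 5) in ALT tumours, a log2 difference of 0.56. Its 7 probe sets disagreed: of the 5 others past the filter, 3 were above 0 (0.09 to 0.44), and 2 had every ALT array below every telomerase array, at −0.23 and −0.34. Of the next 3 measured genes, 4933406B17Rik had 0.50 with overlapping groups, and Ccdc113 and Prss54 were below the filter (telomerase means of 12.4 and 1.80). Just outside, Usb1, Zfp319, Cngb1 and Kifc3 had −0.06, 0.23, 0.17 and −0.04, all with overlapping groups, and Tepp was below the filter with a telomerase mean of 1.33.

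Further out, however, the last 30 tested genes before Cfap20, from Crnde to Usb1, had a median of 0.19, and their ALT array medians ran from 0.13 to 0.28. Of these 30, 22 had a difference above 0, in 8 every ALT array was above every telomerase array, and in 2 (Slc6a2 at −0.54 and Cpne2 at −0.70) every one was below. Over all tested genes these shares were 10.9% and 13.8%. The 8, picked after their values were seen, were Crnde, Nudt21, Ogfod1, Nup93, Herpud1, Rspry1, Coq9 and Polr2c, with log2 differences from 0.34 to 1.07. The limit at Crnde comes from the count of 30 and does not mark where the difference begins. Just before it, Fto, Aktip, Rbl2 and Chd9 had 0.41, 0.27, 0.93 and 0.48, and Cyld had −0.16. The 390 tested genes before Crnde had a median of −0.03. The parental median of the 30 genes was 0.02.

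The difference was clearest in bright genes. Among the 76 tested members with the highest signal (mean of about 475 or more), the median difference was 0.40, and 72 of 76 genes (94.7%) were above 0. In 53 of them (69.7%) every ALT array was above every telomerase array, beside 11.5% of 3805 other tested genes in the same signal range, whose median was −0.04. The ratio of mean signals in these bright members had a median of 1.33. The 76 members of medium signal also had a median of 0.40, and the 77 dimmest had 0.20, beside −0.03 and 0.04 for other genes of like signal. In dim probe sets background is a larger part of the signal, and the pseudocount shrinks log2 differences.

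**Figure D4:**
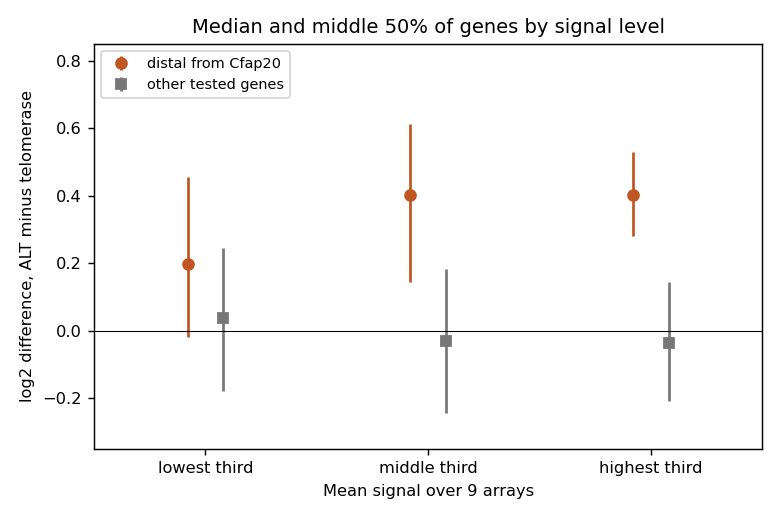
Median ALT minus telomerase log2 difference (points) and the middle 50% of genes (bars) by signal level, for the tested genes from Cfap20 on and other tested genes in the same signal ranges. The distal genes have medians of 0.20, 0.40 and 0.40 from the dimmest to the brightest class, and the others 0.04, −0.03 and −0.04.

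Of 26 tested genes on a transcription factor and chromatin list, 20 had a difference above 0 (median 0.43), and 13 were called higher and 0 lower. The list is not limited to T-cell regulators and also holds Trappc2l (0.19), a gene of vesicle tethering. Of all 229 tested members, 193 were above 0 (median 0.34), with 87 called higher and 2 lower. Over all tested genes 7.47% were called higher and 10% lower. The role lists here and below were not tested against other members. Their counts therefore describe the stretch that was chosen and do not set any role apart. Maf, a bZIP transcription factor of helper T cells, had 306, 381 and 833 in telomerase 1 to 3 and 2532, 2179, 1197, 1914 and 2027 in ALT 1 to 5. Every ALT value exceeded every telomerase value, with a log2 difference of 2.02 (SE 0.313). Of its 6 probe sets 5 were higher and 1 was at −0.01. Nfatc3, a calcium-regulated factor downstream of the T-cell receptor, had 708, 697 and 698 in the telomerase tumours and 1231, 1238, 1031, 1171 and 1175 in the ALT tumours. This is a log2 difference of 0.72 with little spread in either group, and the parental tumour had 725.

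The remaining bright regulators differed by less. Cbfb, the partner subunit of the RUNX factors, went from 2671 ± 131 (SD, n = 3) to 3622 ± 382 (SD, n = 5). Ctcf, which organises chromatin loops, went from 2334 ± 60.6 to 3025 ± 288, and Irf2bp2, a transcriptional corepressor, from 1321 ± 123 to 1836 ± 103. Their log2 differences were 0.43, 0.37 and 0.47, and in each of the 3 genes the ALT arrays were all above the telomerase arrays. The parental values of 2745, 2365 and 1276 lay at the telomerase level. Of the 4 probe sets of Irf2bp2, 1 was below 0, at −0.13. Irf8, a factor of myeloid and B cells, had the lowest difference of the 26 on the list, at −0.36. It had 391, 394 and 354 in telomerase tumours and from 222 to 393 in ALT tumours, so the groups overlapped. The brighter Cbfa2t3, on the same list, was also below 0, at −0.25.

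A list headed immune signalling had 16 of 17 tested genes above 0 (median 0.43), 6 called higher and 0 lower. It shares Maf, Nfatc3 and Irf8 with the regulators and is not limited to immune genes. Mvd, Slc7a5 and Slc7a6 are counted again under transport and small molecule metabolism, and Cotl1 under the cytoskeleton. Cyba, the p22phox subunit of the NADPH oxidase, was at 1267, 1097 and 1214 in telomerase tumours and at 1491, 1912, 1428, 2006 and 1444 in ALT tumours. Psmb10, a subunit of the immunoproteasome, was at 872 ± 35.7 and 991 ± 209, and its groups overlapped. The signalling phospholipase Plcg2, which acts mainly in B and myeloid cells, had 65.8 ± 9.40 and 68.1 ± 16.4.

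On a mitochondrial list 13 of 16 tested genes were above 0 (median 0.30, range −0.15 to 1.22), and 9 were called higher and 0 lower. The list also holds Gnpat (0.23), an enzyme of peroxisomes. Cox4i1, a subunit of cytochrome c oxidase, had 8204, 8227 and 8327 in telomerase tumours and 9164, 10738, 9388, 9549 and 9828 in ALT tumours. The groups did not overlap although the log2 difference was 0.24. Tomm20, a receptor of the outer membrane import machinery, had 10323 ± 133 and 12610 ± 1078, and its parental value of 11223 lay above the lowest ALT value of 11061. The log2 difference was 0.28, and 4 further probe sets of Tomm20 had 0.24 to 0.50, but another had −1.61 with every ALT array below every telomerase array. Got2, the mitochondrial aspartate aminotransferase, and Kars, the lysyl-tRNA synthetase, had differences of 0.42 and 0.32. Cmc2, a factor of cytochrome c oxidase assembly, differed most, from 601 ± 35.9 to 1425 ± 118 (log2 difference 1.22), and 1 of its 4 probe sets pointed the other way.

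All 17 tested genes of translation and RNA processing were above 0 (median 0.32), with 8 called higher and 0 lower. Sf3b3, a subunit of the spliceosome, had 1476, 1510 and 1563 in telomerase tumours and 2104, 2411, 2407, 2349 and 2330 in ALT tumours, a log2 difference of 0.61. Nob1, a nuclease of small ribosomal subunit maturation, went from 617 ± 35.5 to 1019 ± 83.9 (0.71). Rbm34 and Utp4, both nucleolar proteins, had 0.29 and 0.25. By these probe sets the ALT arrays were above the telomerase arrays in all 4 genes, although Rbm34 was not among the genes called. A second probe set of Rbm34 was opposite and larger, at −0.73, with every ALT array below every telomerase array.

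On a list headed ubiquitin, proteasome and NEDD8, 11 of 12 tested genes were above 0 (median 0.42), and 6 were called higher and 0 lower. The list is not limited to these roles. It holds Cdh1, the gene of E-cadherin, by its symbol, and this was the only gene below 0. It also holds Zdhhc7, a palmitoyltransferase, which was above 0 at 0.25. Fbxl8, an F-box protein, had 73.0, 54.0 and 65.1 in telomerase tumours and 196, 224, 259, 256 and 216 in ALT tumours, a log2 difference of 1.62. Fbxo31, another F-box protein, had 1.16, but its second probe set had −0.31. Nae1, a subunit of the enzyme that activates NEDD8, went from 767 ± 61.1 to 1030 ± 92.9, and the proteasome lid subunit Psmd7 from 766 ± 87.2 to 934 ± 36.2. The ubiquitin ligase Rfwd3 had a difference of 0.42 with overlapping groups, since ALT 5 was at 1253 and telomerase 1 at 1415.

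Of 26 tested genes of vesicle traffic, autophagy and the cytoskeleton, 21 were above 0 (median 0.25), and 7 were called higher and 1 lower. Ist1, a regulator of the ESCRT machinery, went from 920 ± 34.6 to 1302 ± 147 (0.49). The proton pump subunit Atp6v0d1 and the actin-binding Cotl1 had 0.20 and 0.47 with overlapping groups. Map1lc3b, which encodes the autophagosome protein LC3B, had 1851, 1549 and 1993 against 1850, 2216, 1435, 1958 and 2035, a difference of 0.07. Its 4 probe sets disagreed, and one of the dimmer ones had 1.29 with no overlap of the groups. Of 15 tested genes of transport and small molecule metabolism 14 were above 0 (median 0.36), with 5 called higher and 0 lower. Among them were Galnt2, a glycosyltransferase (0.36), Aprt, which salvages adenine (0.32), and Slc7a5, an amino acid transporter (0.36, with overlapping groups).

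**Figure D5:**
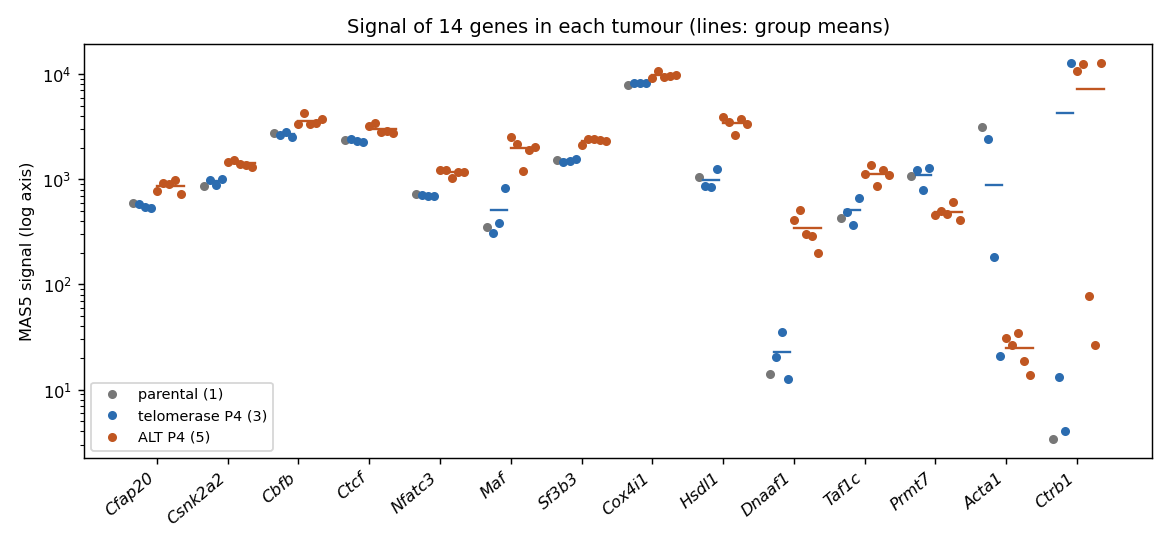
MAS5 signal on a log axis of 14 genes of the stretch in each tumour, with lines at the means of the 3 telomerase and 5 ALT tumours. Nfatc3, Sf3b3, Hsdl1 and Dnaaf1 have ALT points wholly above the telomerase points, and Prmt7 has them wholly below. Ctrb1 and Acta1 differ widely between tumours of the same group.

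Of the members with separate groups, Dnaaf1 had the largest difference, and its neighbours were well above the common level. Dnaaf1, an assembly factor for the dynein arms of motile cilia, had 20.3, 35.3 and 12.5 in telomerase tumours, 13.9 in the parental tumour and 407, 511, 301, 287 and 200 in ALT tumours. The groups were far apart, with a log2 difference of 3.18 (SE 0.283); its second probe set had 0.71. The telomerase signals lie near the pseudocount, which therefore affects the size. The telomerase mean of Dnaaf1 lay below the filter limit, so the gene passed the filter only through its ALT arrays. Hsdl1, a dehydrogenase-like protein whose start is separated from that of Dnaaf1 by 20 bases (ccgtggccccccctcggcta, chr8:119575215-119575234, GRCm38.p6, plus strand), had 856, 851 and 1258 against 3948, 3549, 2652, 3715 and 3359. This is a log2 difference of 1.80, again without overlap. On the other side, Taf1c, a subunit of the factor that recruits RNA polymerase I, went from 507 ± 148 to 1132 ± 181 (1.16); its gene overlaps the end of Dnaaf1 by 481 bases. Mbtps1, the site-1 protease next to Hsdl1, went from 1041 ± 314 to 1877 ± 300 (0.86). In all 4 genes every ALT array was above every telomerase array.

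The remaining large differences were scattered. 2810004N23Rik went from 354 ± 14.3 to 999 ± 60.3 (1.46), with 1 of its 2 probe sets pointing the other way, while Gnpat, whose start lies 3 bases from its own, had 0.23. Slc35f3, a transporter, had 12.5 ± 2.44 and 67.2 ± 25.7 (1.49, near the pseudocount). Its telomerase mean also lay below the filter limit, so it passed only through its ALT arrays. Pard3, a cell polarity scaffold near the distal end, had 43.5 ± 18.7 and 128 ± 37.9 (1.27), and 2 of its 4 probe sets pointed the other way. The other members with a difference of 1 or more and separate groups were Wdr59 (1.06), Mon1b (1.12), Crispld2 (1.04) and Ccsap (1.09), named here after their values were seen.

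The 2 genes in which every ALT array was lower lay close together. Prmt7, an arginine methyltransferase, had 1235, 796 and 1275 in telomerase tumours and 457, 496, 472, 607 and 412 in ALT tumours. The log2 difference was −1.13 (SE 0.170), but its other 2 probe sets were dimmer and pointed up, one of them past the filter with 0.27. Slc7a6os, whose start lies 120 bases from that of Prmt7 across the first sequence above, differed the other way, with 119, 113 and 150 against 264, 214, 240, 205 and 256 (0.81). A second probe set of Slc7a6os had 0.06 with overlapping groups. Tango6, a gene of protein transport, had 255, 223 and 183 against 99.6, 128, 98.9, 122 and 83.2 (−0.95). The representing probe sets had 0.49 for Cog8 and 0.52 for Nip7, and 0.44 for Fhod1 and 0.77 for Slc9a5. A second probe set of Nip7 had −0.56 with every ALT array below every telomerase array, and one of Slc9a5 had −0.11 with overlapping groups, so the direction in these pairs depends on the probe set.

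Some bright members were below the common level by the probe set that stands for them. Of the 76 brightest, Prmt7, Cbfa2t3, Cyb5b and Egln1 were below 0, and Rnf166, Map1lc3b and Setd6 were between 0.06 and 0.07. Cbfa2t3, a transcriptional corepressor, had 694 ± 88.4 and 582 ± 85.8 (−0.25), and the oxygen sensor gene Egln1 had 907 ± 37.5 and 869 ± 86.0 (−0.07). Other probe sets differed in direction for some of these genes. A second one of Egln1 had 0.75, and a further pair for Cyb5b, a cytochrome b5, had 0.62 and 1.65, each with every ALT array above every telomerase array. At the distal end, the 5 last measured genes were Pard3, Nrp1 (0.30), Itgb1 (−0.07), Ccdc7a, which was below the filter, and 2610044O15Rik8 (−0.06). Nrp1, a semaphorin co-receptor, and Itgb1, the beta-1 integrin, both had overlapping groups.

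Genes of other tissues differed widely between tumours of the same group. Ctrb1 and Ctrl encode digestive enzymes of pancreatic acinar cells. Ctrb1 had 13.2, 4.05 and 12701 in telomerase 1 to 3, 10772, 12420, 77.8, 26.6 and 12842 in ALT 1 to 5 and 3.39 in the parental tumour. It was high in telomerase 3 and in ALT 1, 2 and 5, which are the arrays where the summed signal of 13 acinar markers was 87679 or more, against 966 or less in the others. Tmed6, a secretory pathway protein, was high in the same 4 arrays, at 154 in telomerase 3 and 93.2 to 895 in ALT 1, 2 and 5. Acta1, the actin of skeletal muscle, had 2428, 183 and 20.8 in the telomerase tumours, 3148 in the parental tumour and 34.3 or less in the ALT tumours. The summed signal of 13 muscle markers was 10019 in telomerase 1, 14722 in the parental tumour and 695 or less elsewhere.

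The median of the stretch was alike with and without these transcripts. It was 0.34 among the arrays without pancreatic transcripts (telomerase 1 and 2 against ALT 3 and 4), 0.33 among those with them (telomerase 3 against ALT 1, 2 and 5), and 0.33 without Ctrl, Ctrb1 and Acta1. In the first of these comparisons, with fewer arrays, 37 members were called higher and 2 lower. Over all 12361 tested genes, 837 were called there in either direction. The second rests on 1 telomerase array, so only its median is given here. The summed signal of 13 T-cell markers was 40659 to 44068 in telomerase tumours and 31682 to 38719 in ALT tumours, and 3 of the 13 were called higher and 4 lower. That of 11 myeloid markers was 6485 to 9540 and 6516 to 9987, that of 5 B-cell markers 514 to 620 and 530 to 721, and that of 8 stromal markers 5787 to 8046 and 4819 to 9166. Their part in the differences was not tested. In such tumour pieces, fewer cells of a type and less RNA per cell cannot be told apart.

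Of the cadherins, adhesion proteins mostly of epithelium, vessels and nerve, 5 of 8 were tested, and 0 were called with limma or had separate groups. Cdh1 was at 322, 171 and 347 in telomerase tumours and 292, 222, 29.7, 19.8 and 360 in ALT tumours, so it was low in ALT 3 and ALT 4, which lack pancreatic transcripts, but not in telomerase 1 and 2, which lack them too. Cdh5, the cadherin of vessels, was at 174, 38.8 and 50.2 in telomerase tumours and 68.7 to 111 in ALT tumours. Of 6 carboxylesterase members, enzymes mainly of liver and gut, 2 passed the filter, and Ces2g and Ces2f had differences of 0.21 and −0.12 with overlapping groups.

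The parental tumour belongs to neither group of the contrast that chose the stretch, and it has no replicate. For 179 of the 229 tested genes (78.2%) its value lay nearer to the telomerase than to the ALT mean, compared with 71.0% of all tested genes. Of the 104 members in which every ALT array was above every telomerase array, the parental value was below every ALT array in 95 (91.3%), and within the telomerase range in 50. Among 1235 other genes with such a separation the parental value was below every ALT array in 85.9%. The 9 exceptions in the stretch were Enkd1, Pskh1, Dus2, Pmfbp1, Mtss2, Gabarapl2, Mphosph6, Fam89a and Tomm20.

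Probe sets that were not used to represent a gene were counted in the same arrays, as a description. Of 173 such probe sets past the filter, from 96 members, 137 (79.2%) were above 0 (median 0.27), beside 43.0% of 9828 such probe sets of other genes (median −0.05). In 69 (39.9%) every ALT array was above every telomerase array, beside 9.15% for other genes, and in 7 (4.05%) every one was below, beside 19.0%. The 7 belonged to Csnk2a2, Nip7, Rbm34, Tomm20, Afg3l1 and Znrf1, named after their values were seen. The sign was that of the representing probe set in 135 of the 173. Taken whole, chromosome 8 had a median of 0.11, and the other chromosomes ran from −0.37 on chromosome 13 to 0.19 on chromosome 18. Every ALT array was above every telomerase array in 23.4% of tested genes of whole chromosome 8 and 25.1% of those of chromosome 18.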

How the data were processed

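Total RNA was hybridised to Affymetrix arrays. The deposited intensity of each of 45101 probe sets is a linear signal that the submitters' processing notes credit to MAS5, with no version or scaling stated. Array medians lay between 39.8 and 43.8, so the values were used without further normalisation. The table holds no detection calls, and the number of arrays limits the precision.

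A single gene was named for 34958 probe sets, 34754 of which were in RefSeq GRCm38.p6, which gave gene order. Values were analysed as log2(signal + 16). The filter and the choice of probe set used the mean of these values over 9 arrays. The 3 telomerase and 5 ALT arrays at passage 4 were fitted with limma 3.58.1 in R 4.3.3 (intensity trend, two-sided, Benjamini-Hochberg over 12361 genes, threshold 0.05), without the parental array. SE values are from this fit; SD is over arrays. The fit was tested on simulated data. Plots used Python 3.11.15 and matplotlib 3.10.9.

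The members, the role and marker lists and the settings were chosen with earlier results of these data known. Genes named are up to 4 brightest tested members of each role list, the 10 largest higher and all lower members with separate groups, the 5 genes on each side of the edge, the 5 most distal, and marker genes; others were picked after their values were seen. Alternatives changed the filter, pseudocount, normalisation, probe set summary, use of the parental array, block, variance model, telomerase reference and arrays. P-values would measure only the spread between these samples, which may be technical.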

Additional observations from a re-analysis of the deposited data

Results flagged for a closer look

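In 6 of 55 values checked, the highest or lowest of the 5 ALT arrays stood far from the other 4, as judged by its gap divided by the range of the group (limit 0.71 for 5 arrays). Chance gives about 1 in 20 such cases. ALT 5 was high for 4933406B17Rik (175 against 42.8 or less, gap 0.81) and Cotl1 (1143 against 826 or less, gap 0.836), and low for Rfwd3 (1253 against 1796 or more, gap 0.79). ALT 1 was low for Sf3b3 (2104 against 2330 or more, gap 0.748) and Utp4 (1449 against 1622 or more, gap 0.808). ALT 4 was low for the dim Cdh15 (27.6 against 46.3 or more, gap 0.734). The medians of the stretch over the 5 ALT arrays had no such outlier.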

How the results depend on the processing

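The median difference of the stretch stayed positive in every setting, and moved to 0.40 with a filter at 60%, 0.26 with no filter, 0.27 with a pseudocount of 64 and 0.27 with the mean of probe sets. The median of chromosome 8 before Cfap20 was −0.041 with the filter at 60% and 0.019 with quantile normalisation. Without 1 array the stretch's median ran from 0.32 to 0.35, its genes called higher from 62 to 90, those called lower from 2 to 3, those with separate groups from 106 to 123, and the genes called overall from 1152 to 2080, the lowest without telomerase 1. With replicate numbers as a block 982 genes were called, and 40 members were called higher. Same-numbered arrays had deviations that correlated at −0.299, −0.396 and −0.571. Between the groups, arrays alike in pancreatic transcripts correlated positively (0.32 to 0.45), and all other pairs negatively. The same-numbered pairs were all unlike in these transcripts, so their correlations cannot show whether such tumours share a line. Chosen after the data were seen, the arrays without pancreatic transcripts called 837 genes and 37 members higher, and those with them 334 genes, 10 members higher and 1 lower; the second comparison rests on 1 telomerase array, assumed to vary like the ALT arrays. With the mean of probe sets 1 member was called lower. Of 192 array medians in other settings 18 moved by more than the spread between ALT arrays, and of 1127 values of 54 named genes 69 moved by more than that gene's spread and 0 turned a called direction.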
